A study of Mus musculus with 4 samples.

Results

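The genes described here are the inhibitors of metalloproteinases in mouse lung: Timp1, Timp2, Timp3 and Timp4, Reck and A2m. They were chosen by name, as every non-control probe whose gene name in the scanner files was one of these 6 symbols, which gave 11 of 56605 probes and 6 of 27195 named genes. Lung RNA of C57BL/6J mice was hybridised to 4 Agilent 1-colour mouse arrays, with 1 array for each of ORX/PPE, ORX/PBS, sham/PPE and sham/PBS. The labels do not spell out ORX and PPE, which were read from the title's testosterone deficiency and elastase-induced emphysema as orchiectomy and pancreatic elastase of the pig. ORX/PPE and ORX/PBS mice had the orchiectomy and sham/PPE and sham/PBS mice the sham operation, each followed by inhaled PPE or by PBS, the vehicle, with sampling labelled as 3 weeks. Each array took RNA pooled from 5 mice, so there were no replicates, the spread between mice is unknown, and the age of the mice was not given in the sources used here. Every difference below is one between pools. In bulk lung RNA, fewer cells of a type and less RNA per cell cannot be told apart.

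TIMPs are small secreted proteins that block matrix metalloproteinases by inserting their amino-terminal end into the catalytic zinc site. Timp1 is inducible by cytokines and growth factors, Timp2 is expressed widely and takes part in the activation of Mmp2 by Mmp14, Timp3 stays bound to the extracellular matrix and also inhibits Adam17 and aggrecanases, and Timp4 is best known from heart and fat. Reck is a membrane-anchored inhibitor of several matrix metalloproteinases and a partner of Adgra2 in Wnt7 signalling, and A2m is a plasma protein that traps proteases of many classes and is cleared by Lrp1. In emphysema the balance between elastin-degrading proteases and their inhibitors is thought to set the loss of alveolar walls.

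The probes are 60-base oligonucleotides and are shown because the results below turn on which stretch of a transcript was read. Coordinates are those of the files, on mouse build mm9, and each sequence is written 5′ to 3′ with no part marked by capitals. The Timp1 probe and the Timp2 probe A_65_P12392 are given whole, and the Timp3 probes and the A2m probe by their first 30 bases.
Timp1 A_52_P87713: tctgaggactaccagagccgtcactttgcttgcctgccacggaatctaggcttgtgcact
Timp2 A_65_P12392: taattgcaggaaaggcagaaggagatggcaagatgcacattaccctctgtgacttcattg
Timp3 A_55_P2865447: cagtagagatgaagagacaccagccagaga
Timp3 A_51_P463765: atagtgacttttggggatagatctgtctgg
Timp3 A_55_P2715422: aagactctggggtcttgacattaggaaacc
A2m A_52_P455370: tacaaaattccaagtgaacaacgacaacca
The Timp1 probe lies on chromosome X from 20451675 to 20451733 and starts at base 701 of its RefSeq transcript. Timp2 has 2 probes on chromosome 11, of which A_65_P12392 spans 6778 genomic bases, from 118171964 to 118178741, and so crosses an exon junction. The other, A_52_P540219, lies from 118163146 to 118163205. Of the 3 Timp3 probes on chromosome 10, A_51_P463765 from 85811696 to 85811755 and A_55_P2865447 from 85812041 to 85812100 start at bases 4126 and 4471 of the same RefSeq transcript, 345 bases apart. A_55_P2715422, from 85769407 to 85769466, was designed to an Ensembl transcript and starts 42289 bases upstream on the genome. Timp4 has 3 probes on chromosome 6, of which A_55_P2908603, from 115195840 to 115195899, and A_51_P355427, from 115196120 to 115196179, were designed to the RefSeq transcript. The third, A_55_P2730556, from 115196869 to 115196928, was designed to a cDNA clone. The Reck probe lies on chromosome 4 from 43957452 to 43957511 and the A2m probe on chromosome 6 from 121624853 to 121624912. The G and C content of the 11 probes ran from 35 to 55%. A run of 20 bases of any of them, on either strand, occurred in 0 other probes of the array. Whether the probes fall in exons, introns or untranslated regions was not looked up, because no annotation of build mm9 was used.

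The number of arrays limits the precision, and the files allow only technical errors to be given. The 75th percentile of the probe signals, used to scale each array, was 621 on ORX/PPE, 715 on ORX/PBS, 592 on sham/PPE and 619 on sham/PBS. All 6 alveolar type 2 cell markers, such as Sftpc and Sftpb, were well above background on every array, in keeping with lung tissue. The scanner software's own error of a spot came to about 0.20 on the log2 scale for a difference between 2 arrays. This held for every measured probe of the inhibitors except the dimmest Timp4 probe, so for them the error is nearly a fixed yardstick. It was not worked out for A2m or for the other genes named below. This error covers the measurement of spots and not the mice. Differences are log2 differences of the scaled signal. A gene counted as 2-fold apart where its brightest probe differed by at least 1 between arrays on which it was well above background. A gene well above background on only 1 of the arrays counted where it lay at least 1 from the other array's floor. The shares of all genes given below include such bounds, which the counts among measured genes leave out. Both arrays measured 19603 to 19958 genes, depending on the comparison.

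Of the 6 genes, 5 were measured on all 4 arrays and 0 passed 2-fold in any of the 4 comparisons. For PPE over PBS in sham lungs 0 of 5 passed, where 1.7% of 20859 genes did, and in ORX lungs 0 of 5, where 1.04% of 21159 genes did. For ORX over sham the count was 0 of 5 in PBS lungs, where 1.78% of 21205 genes passed, and 0 of 5 in PPE lungs, where 1.74% of 20780 did. Beside shares this small, a count of 0 among 5 is no result about the inhibitors. Their differences had medians of 0.06 and -0.00 for PPE in sham and in ORX lungs and of 0.01 and -0.10 for ORX in PBS and in PPE lungs, where the medians of all genes were 0.04, -0.01, 0.01 and -0.03. Over the 4 arrays the log2 level spanned 0.10 in Timp4, 0.13 in Timp2, 0.20 in Reck, 0.54 in Timp1 and 0.58 in Timp3. The median span of the 19320 genes above background on every array was 0.31, and 5.03% of them spanned less than Timp4, 9.27% less than Timp2 and 26.3% less than Reck. Timp1 and Timp3 were on the other side, with 78.1% and 81.5% of genes spanning less.

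**Figure D1:**
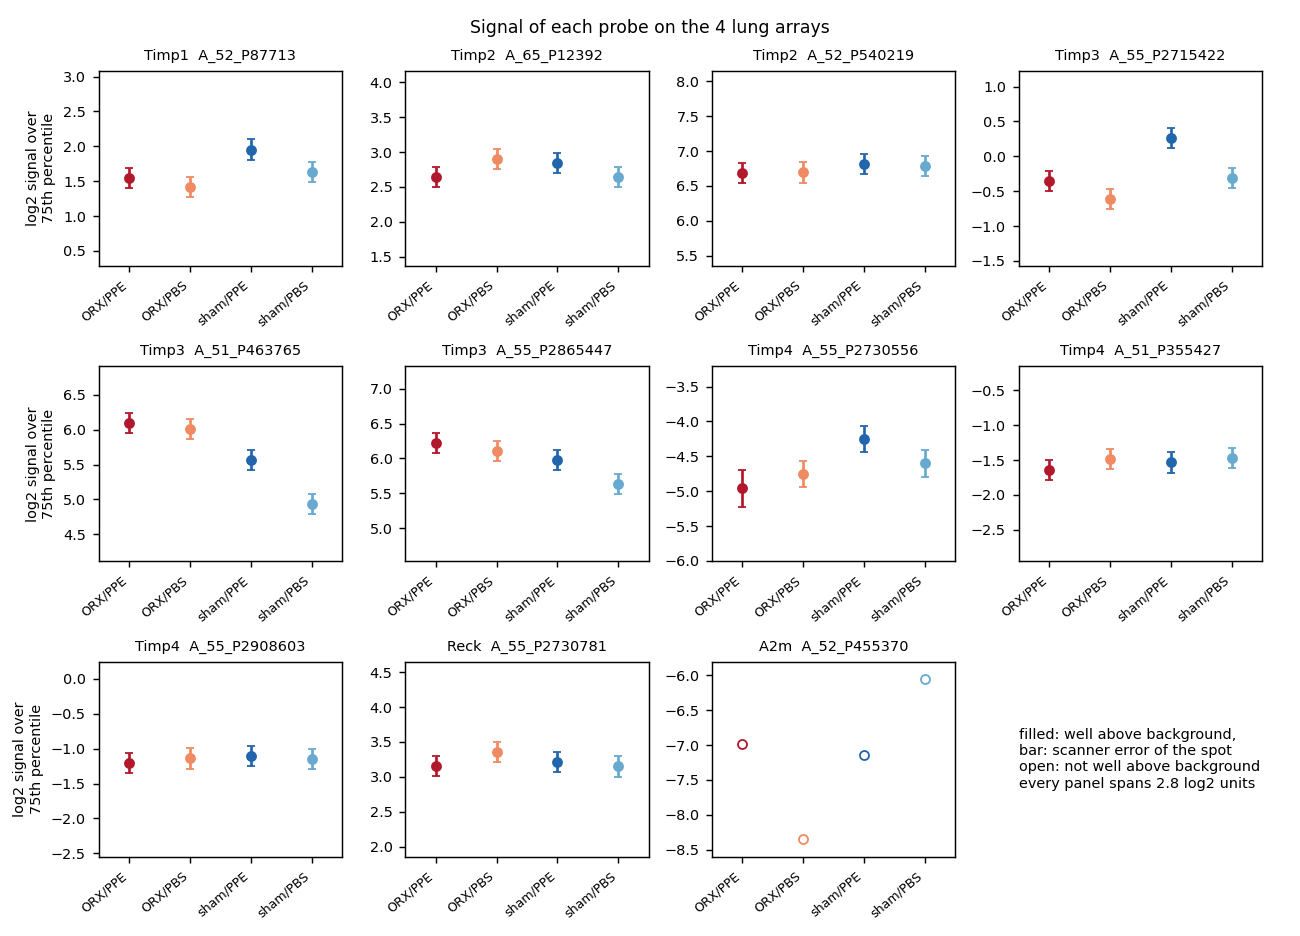
Signal of each of the 11 probes on the 4 arrays, as log2 of the processed signal over the array's 75th percentile, with ORX/PPE, ORX/PBS, sham/PPE and sham/PBS from left to right. Filled points are well above background with the scanner error of the spot as bars, open points are not well above background, and all panels span the same range: the brightest probes of Timp2, Timp4 and Reck are level, Timp1 is highest on sham/PPE, and both probes of the Timp3 RefSeq transcript are highest on the ORX arrays.

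Timp1, the inducible member, had a processed signal of 1814 on ORX/PPE, 1909 on ORX/PBS, 2293 on sham/PPE and 1909 on sham/PBS. The sham/PPE array was the highest and the other 3 lay close together. After scaling, PPE lungs stood 0.33 above PBS lungs in sham mice and 0.13 above them in ORX mice, which is 1.61 and 0.63 times the scanner error. ORX over sham was -0.21 under PBS and -0.41 under PPE, and the second, a fold of 0.753 and 2 times the scanner error, was the largest of the 4 differences of Timp1. In that comparison 12.9% of 19603 genes differed from 0 by at least as much. In order from low to high the arrays ran ORX/PBS, ORX/PPE, sham/PBS and sham/PPE, and only the step from sham/PBS to sham/PPE exceeded the scanner error. The same sign was found in each comparison of Timp1 under all 4 other scalings.

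Cytokines that induce Timp1 were looked at beside it. Of 11 such genes, 9 were measured in each comparison and 0 passed 2-fold in any, where 1.04 to 1.78% of all genes did, so the count is no result about them. Il1b was the highest of them for PPE in sham lungs at 0.71, and was at 0.16 for PPE in ORX lungs and -0.52 for ORX in PPE lungs. Il6, a main inducer through STAT3, was at -0.59 for ORX in PBS lungs and -0.63 in PPE lungs, and its relative Osm at -0.44 and -0.52. Lif was at -0.46 for PPE in sham lungs. Tgfb1 stood at 0.39 and 0.01 for PPE in sham and in ORX lungs. Il10 and Csf3 were not well above background on any array.

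Timp2 was among the most even of the genes. Its brighter probe gave signals of 64158 on ORX/PPE, 74009 on ORX/PBS, 66721 on sham/PPE and 68114 on sham/PBS; after scaling the arrays lay within 0.13 of each other. Its differences were 0.03 and -0.00 for PPE in sham and in ORX lungs and -0.09 and -0.13 for ORX in PBS and in PPE lungs, and each was below the scanner error. The exon-junction probe read 3863 on ORX/PPE, 5333 on ORX/PBS, 4234 on sham/PPE and 3847 on sham/PBS. It was highest on ORX/PBS, at 0.26 above sham/PBS and 0.26 above ORX/PPE, each 1.28 to 1.29 times the scanner error. No 2 neighbours in the order of the arrays differed beyond the scanner error at either Timp2 probe.

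Timp3, the matrix-bound inhibitor, showed the widest differences of the family, and its probes did not give the same picture. Its brightest probe, A_55_P2865447, had signals of 46154 on ORX/PPE, 49215 on ORX/PBS, 37283 on sham/PPE and 30635 on sham/PBS. Both ORX arrays stood above both sham arrays after scaling, and in each surgery the PPE array stood above the PBS array. ORX over sham was 0.47 in PBS lungs and 0.24 in PPE lungs, folds of 1.39 and 1.18, and PPE over PBS was 0.35 in sham lungs and 0.11 in ORX lungs. The step from sham/PBS to sham/PPE exceeded the scanner error and the 2 higher steps did not.

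The neighbouring probe A_51_P463765 gave the same order, with larger steps except between ORX/PBS and ORX/PPE, where the step was 0.08 against 0.11 at the brightest probe. It read 42373 on ORX/PPE, 45996 on ORX/PBS, 28059 on sham/PPE and 18870 on sham/PBS, from which ORX over sham was 1.08 in PBS lungs, a fold of 2.11, and 0.52 in PPE lungs. It was the only 1 of the 10 measured probes of these genes to pass 2-fold, for ORX in PBS lungs. In that comparison 1.11% of 19958 genes differed from 0 by at least as much at their brightest probe. With this probe in place of the brightest, a choice made after its values were seen, 1 of 5 genes passed 2-fold there. The share of all genes was 1.78%, so this count too is no result about the inhibitors. PPE over PBS was 0.64 in sham lungs and 0.08 in ORX lungs. ORX/PPE stood 2.23-fold above sham/PBS at this probe, the widest contrast of 2 arrays at any measured probe.

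The third Timp3 probe, A_55_P2715422, turned the direction of ORX. It read 484 on ORX/PPE, 469 on ORX/PBS, 711 on sham/PPE and 498 on sham/PBS. The sham/PPE array stood alone, 0.58 above sham/PBS, while ORX over sham was -0.29 in PBS lungs and -0.62 in PPE lungs, 1.44 and 3.05 times the scanner error. PPE over PBS was above 0 at all 3 Timp3 probes in both surgeries, and ORX over sham was above 0 at the 2 probes of the RefSeq transcript and below 0 at the Ensembl one. All of these signs held under normexp background correction, quantile normalization, median centring and the deposited value table. Quantile normalization and the value table, which give nearly the same values, brought A_51_P463765 to 0.98 for ORX in PBS lungs, just under 2-fold.

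To place this gap, the 2 brightest probes of each gene were compared wherever both were measured. For ORX over sham in PBS lungs the Timp3 probes of the RefSeq transcript differed by 0.60, where the median over 8719 genes was 0.18 and the 90th percentile 0.55. At least as wide a gap was found for 7.93% of those genes. The gap for Timp2 in the same comparison was 0.35 and that for Timp4 0.03. For PPE in ORX lungs the Timp3 probes were within 0.03 of each other.

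**Figure D2:**
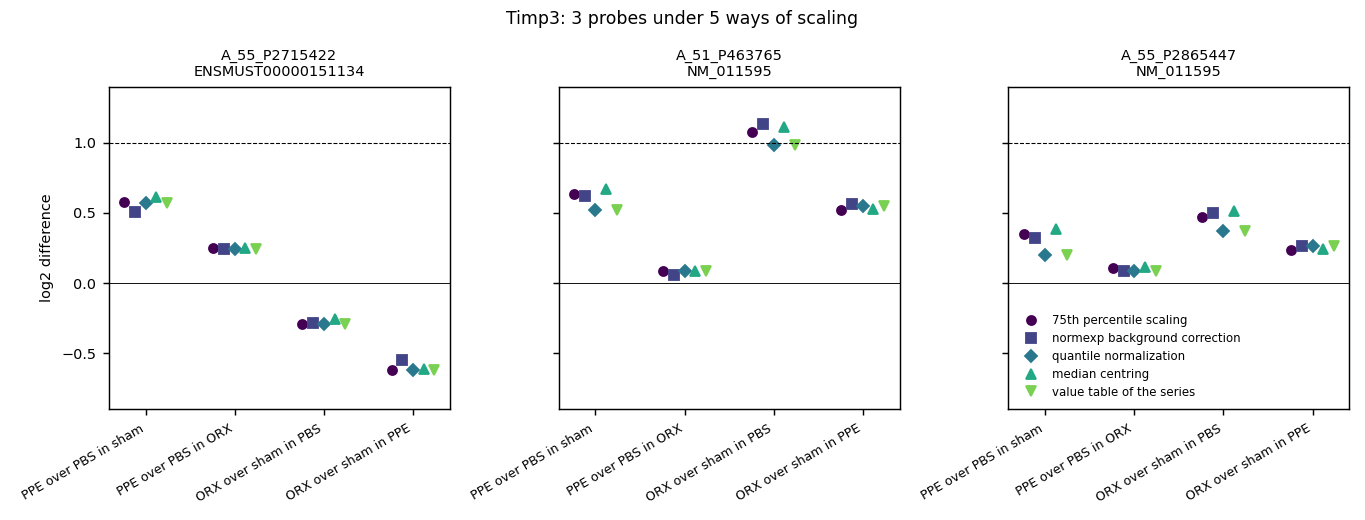
Log2 differences of the 3 Timp3 probes in the 4 comparisons, for 75th percentile scaling and 4 other ways of making the values, with the dashed line at 2-fold. A_51_P463765 lies at 0.98 to 1.13 for ORX over sham in PBS lungs whichever way is used, A_55_P2865447 at 0.37 to 0.52, and A_55_P2715422 below 0.

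Timp4 did not differ between arrays beyond the scanner error at either RefSeq probe. A_55_P2908603 read 269.9 on ORX/PPE, 325 on ORX/PBS, 276 on sham/PPE and 278 on sham/PBS, and its 4 differences ran from -0.10 to 0.05. A_51_P355427 read 199.8, 255, 204 and 223 on the same arrays and its differences ran from -0.15 to -0.02. The dim probe of the cDNA clone, at 19.97 on ORX/PPE, 26.5 on ORX/PBS, 31.0 on sham/PPE and 25.5 on sham/PBS, was the exception. It was at -0.71 for ORX in PPE lungs, 2.20 times its scanner error of 0.32, and at 0.35 for PPE in sham lungs. Its difference for PPE in ORX lungs was -0.21, and normexp background correction turned it to 0.09.

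Timp4 is known from heart and fat, and transcripts of both stood high on the sham/PPE array. Summed over 12 cardiac muscle markers, all well above background on every array, the signal in units of the array's 75th percentile was 44.6 on ORX/PPE, 90.7 on ORX/PBS, 234 on sham/PPE and 110 on sham/PBS. Over 9 adipose markers, of which 8 or 9 were above background, it was 38.9, 55.7, 72.0 and 45.2 on the same arrays. The cardiac list had 10 of 12 members at least 2-fold lower in ORX than in sham lungs under PPE, where 1.45% of all genes were, with a median of -2.16 against -0.03 for all genes. In the same comparison the 2 RefSeq probes of Timp4 were at -0.10 and -0.10. The dim Timp4 probe did run with these lists, being highest on sham/PPE and lowest on ORX/PPE. The part of heart or fat RNA in its value was not tested.

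Reck, the membrane-anchored inhibitor, read 5543 on ORX/PPE, 7310 on ORX/PBS, 5466 on sham/PPE and 5486 on sham/PBS. The ORX/PBS array was the highest before and after scaling, at 0.20 above sham/PBS and 0.20 above ORX/PPE, each about the size of the scanner error. The other 3 arrays lay within 0.06 of each other. Its partner in Wnt7 signalling, Adgra2, was at 0.16 for ORX in PBS lungs and -0.04 in PPE lungs. The ligand Wnt7a was at 0.50 for ORX in PBS lungs and at -0.56 for PPE in ORX lungs, so that it too was highest on ORX/PBS. Wnt7b was at -0.18 and -0.13 in the same comparisons.

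A2m was not well above background on any array. Its probe read 4.93 on ORX/PPE, 2.19 on ORX/PBS, 4.19 on sham/PPE and 9.29 on sham/PBS, while the lowest signal among spots well above background ran from 9.52 to 10.8 over the arrays. No fold is given for it. Among its relatives Pzp, a macroglobulin of mouse plasma, was measured on every array, at -0.53 for ORX in PBS lungs and -0.58 in PPE lungs. Mug2 was between -0.27 and 0.04 in the 4 comparisons, and Cd109, a membrane-anchored member, between -0.14 and 0.45. In a list of macroglobulin relatives and other genes, 19 were on the array and 16 were measured in each comparison. Of those 16, 0 passed 2-fold in any comparison, beside the 1.04 to 1.78% of all genes that did. Ambp was called by a bound, since it was above background on sham/PPE alone: at least 2.09-fold higher for PPE in sham lungs and at least 2.01-fold lower for ORX in PPE lungs. With normexp its differences were 0.48 and -0.71. Of 7 liver markers measured, 4 were at least 2-fold higher for PPE in sham lungs, where 1.32% of all genes were: Ahsg at 2.27, Serpina1a at 2.25, Serpina1c at 2.01 and Alb at 1.07. The same 4 were lower for ORX in PPE lungs, at -2.20, -3.41, -3.08 and -1.76, where 1.45% of all genes were. Of the other measured markers, Apoh went the same way below 2-fold, at 0.81 for PPE in sham lungs and -0.61 for ORX in PPE lungs. In the same comparisons Apoa2 was at 0.36 and 0.34 and Trf at -0.03 and -0.11. The summed signal of the list, in which Trf was by far the brightest, was 1.01-fold on sham/PPE over sham/PBS. For PPE in ORX lungs Serpina1a was at -1.75, Serpina1c at -1.42 and Alb at -1.34, where 0.383% of all genes were at least 2-fold lower. With normexp these were -0.70, -0.47 and -0.74. Apoa1 was called higher by a bound in that comparison, at least 2.06-fold, and normexp gave 0.47. Another Serpina1a probe was at 0.95 for PPE in sham lungs, and normexp brought Alb there to 0.77 and Serpina1a for ORX in PPE lungs to -1.96. Their part in the value of Ambp was not tested.

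**Figure D3:**
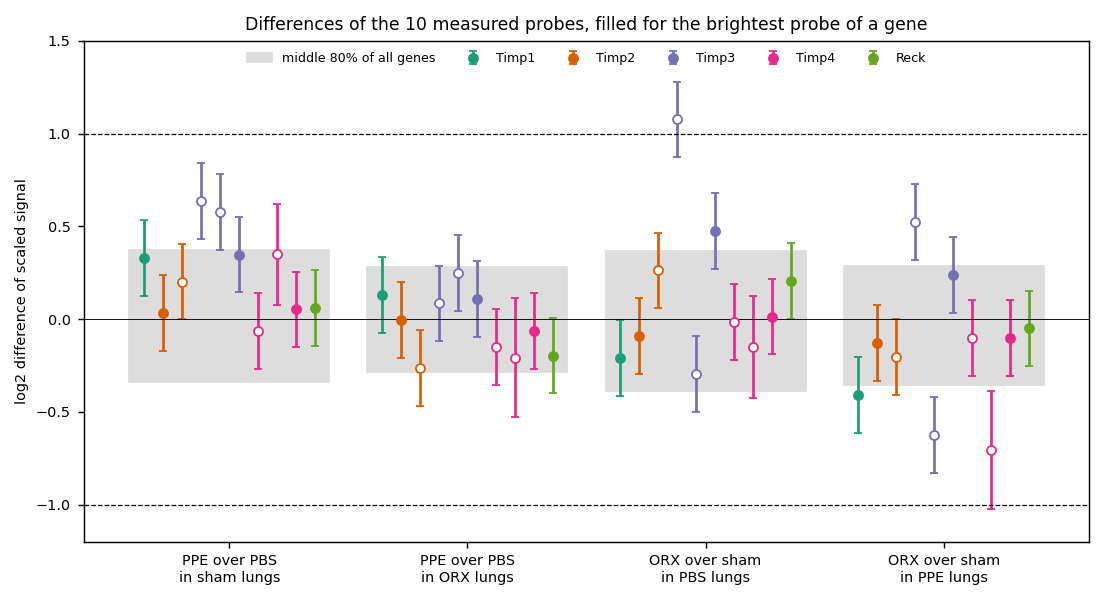
Log2 differences of the 10 measured probes in the 4 comparisons, coloured by gene and filled for the brightest probe of each gene, with the scanner error of the difference as bars, the middle 80% of all genes in grey and 2-fold as dashed lines. The single point past a dashed line is Timp3 A_51_P463765, at 1.08 for ORX over sham in PBS lungs.

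With limma, a model with surgery and agent as separate terms was fitted to 20656 genes over the 4 arrays, on the assumption that the effect of PPE is the same under both surgeries. It called 0 of the 5 measured inhibitors for either factor at an adjusted p under 0.05, where 0% of all genes were called, and 0 of the 5 had an unadjusted p under 0.05, where 5.76% of all genes did for PPE and 8% for ORX. The ORX effect of Timp3 was 0.36 ± 0.15 (SE), with a limma p of 0.0706 and an adjusted p of 0.658. That of Timp1 was -0.31 ± 0.15 (SE), with a limma p of 0.0961 and an adjusted p of 0.709. Their PPE effects were both 0.23 ± 0.15 (SE), with a limma adjusted p of 0.9999 for each. For Timp2, Timp4 and Reck the effects lay between -0.11 and 0.08, and the limma adjusted p was 0.936 or more.

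PPE over PBS had a lower value in ORX than in sham lungs for each of the 5 genes. The share of all genes that did so was not counted, so this is no result about the inhibitors. The median of all genes was also lower in ORX lungs, at -0.01 against 0.04. For Timp4 and Reck it was above 0 in sham lungs, at 0.05 and 0.06, and below 0 in ORX lungs, at -0.06 and -0.20. The difference of the PPE effects, ORX minus sham, was -0.26 for Reck, -0.24 for Timp3, -0.20 for Timp1, -0.12 for Timp4 and -0.04 for Timp2, and that of Timp2 turned above 0 under quantile normalization and in the value table, which also brought Reck in sham lungs to -0.02. At the other probes it reached -0.55 at Timp3 A_51_P463765 and -0.56 at the dim Timp4 probe. Differences between surgeries were not tested, as each rests on 4 single arrays.

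The metalloproteinases that these proteins inhibit included genes past 2-fold. Of 16 matrix metalloproteinases measured for PPE in sham lungs, 2 were at least 2-fold higher and 0 lower, where 1.32% and 0.384% of all genes were, with a median of 0.45 where that of all genes was 0.04. These were Mmp8, the neutrophil collagenase, at 2.30 and the gelatinase Mmp9 at 1.28, with another Mmp9 probe at 1.22. For PPE in ORX lungs 1 of 15 was higher and 0 lower, where 0.652% and 0.383% of all genes were. This was the macrophage elastase Mmp12 at 1.42, though its other probe was at 0.45, and the median was 0.08. For ORX in PBS lungs 1 of 17 was higher and 0 lower, where 0.627% and 1.16% of all genes were. This was the collagenase Mmp13 at 1.14, which normexp brought to 0.31, and the median was 0.36. For ORX in PPE lungs 0 of 15 were higher or lower by 2-fold, where 0.294% and 1.45% of all genes were, with Mmp9 at -0.94 and Mmp12 at 0.93.

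Mmp2 and Mmp14, which form an activation complex with Timp2, differed from each other. Mmp2 had signals of 1710 on ORX/PPE, 1357 on ORX/PBS, 1346 on sham/PPE and 805 on sham/PBS. PPE over PBS was 0.81 for Mmp2 in sham lungs and 0.54 in ORX lungs, and ORX over sham was 0.54 in PBS lungs and 0.27 in PPE lungs. Its lowest array was sham/PBS and its highest ORX/PPE, as at the brightest Timp3 probe after scaling. The middle arrays were swapped between them, and the step to ORX/PPE at that Timp3 probe, 0.11, was below the scanner error. Mmp19, another enzyme of the family, was at 0.69 and 0.43 for PPE in sham and in ORX lungs. For ORX it was at 0.65 and 0.39 in PBS and in PPE lungs. Mmp14 lay between -0.11 and 0.16 in all 4 comparisons.

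Adam10 and Adam17, the sheddases that Timp3 and, for Adam10, Reck act on, were between -0.04 and 0.17 and between -0.21 and 0.19. All 9 ADAM proteases of the list were measured, and 0 passed 2-fold in any comparison, beside the 1.04 to 1.78% of all genes that did. Among ADAMTS proteases, which include the aggrecanases inhibited by Timp3, 3 of 16 measured genes were at least 2-fold lower for ORX in PBS lungs and 0 higher, where 1.16% and 0.627% of all genes were. Their median was -0.34, against 0.01 for all genes. They were Adamts4 at -2.20, Adamts17 at -1.21 and Adamts15 at -1.21. Another probe of Adamts4 was at -0.63, and normexp brought the first to -1.5. The other 3 probes of Adamts17 were at -0.59, -0.40 and -2.05, and normexp brought the brightest to -0.98, just under 2-fold. For PPE in ORX lungs 1 of 15 measured genes was at least 2-fold higher and 0 lower, where 0.652% and 0.383% of all genes were. This was Adamts17 at 1.60, though its 3 other probes were at 0.58, -0.63 and 0.32. For ORX in PPE lungs 2 genes, 1 of them called by a bound, were lower and 0 higher, where 1.45% and 0.294% of all genes were. The measured one was Adamts4 at -1.01, which normexp brought to -0.75, and its other probe was at -1.13. The bound was that of Adamts16, above background on sham/PPE alone, which was at least 2.47-fold lower. For PPE in sham lungs Adamts16 was at least 2.57-fold higher, where 1.32% of all genes were 2-fold higher. Normexp gave 0.48 for PPE in sham lungs and -0.52 for ORX in PPE lungs. Adamts5 was at -0.03 for ORX in PBS lungs and 0.49 in PPE lungs.

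**Figure D4:**
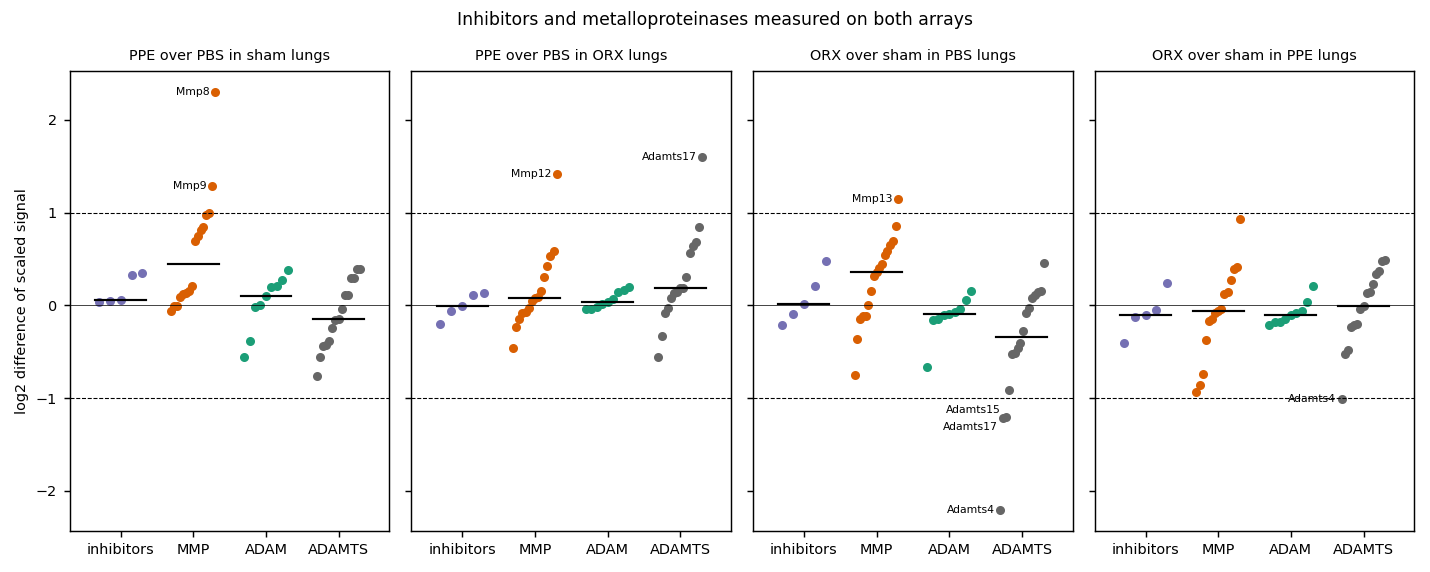
Log2 differences of the inhibitors, matrix metalloproteinases (MMP), ADAM and ADAMTS proteases measured on both arrays of each comparison, 1 point a gene at its brightest probe, with the median as a bar, 2-fold as dashed lines and genes past it named. The inhibitors stay between -0.41 and 0.47 in all 4 panels.

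Of 15 measured receptors and binding partners of the inhibitors, 0 passed 2-fold in any comparison, where 1.04 to 1.78% of all genes did, and their differences ran from -0.56 to 0.54. Both ends lay further from 0 than any difference of the brightest Timp3 probe. Wnt7a stood at -0.56 for PPE in ORX lungs. Agtr2, an angiotensin receptor, was at 0.54 for PPE in sham lungs and -0.54 for ORX in PPE lungs. Its signals of 14.8 to 20.6 were near the floor, where the lowest signals well above background were 9.52 to 10.8. Lrp1, which clears A2m and TIMPs, lay between -0.12 and 0.15, and Cd63, a cell surface partner of Timp1, between -0.06 and 0.18. Efemp1, a matrix protein that binds Timp3, was at -0.00 and -0.35 for PPE in sham and in ORX lungs and at -0.39 for ORX in PPE lungs. Kdr, the VEGF receptor that Timp3 blocks, was at -0.44 for ORX in PBS lungs and -0.17 in PPE lungs.

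Markers of lung cell types that express these genes, and of cells that enter the lung, are given beside them. The summed signal of 10 fibroblast markers, such as Col1a1 and Pdgfra, was 175 on ORX/PPE, 163 on ORX/PBS, 199 on sham/PPE and 164 on sham/PBS. It was highest on sham/PPE, as Timp1 was. The 9 neutrophil markers, 8 or 9 of them above background, summed to 174 on ORX/PPE, 149 on ORX/PBS, 255 on sham/PPE and 124 on sham/PBS, also with the highest value on sham/PPE. The 7 alveolar macrophage markers on the array summed to 156, 94.0, 142 and 71.5 in the same order of arrays. These sums, in which Chil3 was the brightest marker, were higher in PPE than in PBS lungs under both surgeries. For PPE in ORX lungs 5 of the 7 markers were above 0, with a median of 0.11. Marco at 2.29 and Chil3 at 1.01 were at least 2-fold higher there, where 0.652% of all genes were. Normexp brought Chil3 to 0.99. Car4 was the lowest of the markers in that comparison, at -0.49. The 10 smooth muscle and pericyte markers ran from 91.2 on sham/PPE to 109 on sham/PBS, and the 8 endothelial markers from 231 on ORX/PPE to 250.0 on sham/PBS. Lymphocyte markers, 8 in number, summed to 38.2 on ORX/PPE, 36.4 on ORX/PBS, 29.4 on sham/PPE and 20.7 on sham/PBS. These sums ran in the order of both Timp3 RefSeq probes, but not every marker did. For PPE in ORX lungs 3 of the 8 markers were above 0, with a median of -0.05. The part of any of these cell types in the values of Timp1 and Timp3 was not tested.

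Mesothelial markers, 5 in number, summed to 33.2, 32.7, 40.6 and 31.7 on ORX/PPE, ORX/PBS, sham/PPE and sham/PBS. Alveolar type 2 markers ran from 1165 on ORX/PBS to 1349 on sham/PPE, alveolar type 1 markers from 473 on ORX/PPE to 520.1 on sham/PPE, club cell markers from 1297 on ORX/PBS to 1618 on sham/PBS and ciliated cell markers from 61.4 on ORX/PPE to 76.6 on sham/PBS. Of 10 liver markers 7 or 8 were above background and Ttr was on no array, with sums of 77.3 on ORX/PPE, 78.4 on ORX/PBS, 83.7 on sham/PPE and 82.9 on sham/PBS. Of 6 germ cell markers Odf1 was on no array above background, and the list summed to 0.197, 0.188, 3.77 and 0.200 in that order, 18.9-fold higher on sham/PPE than on sham/PBS. The germ cell list was highest on sham/PPE, as Timp1 was. On the other arrays its sums of 0.188 to 0.200 came from dim probes and lay too close together to rank. The part of germ cell RNA in the value of Timp1 was not tested.

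**Figure D5:**
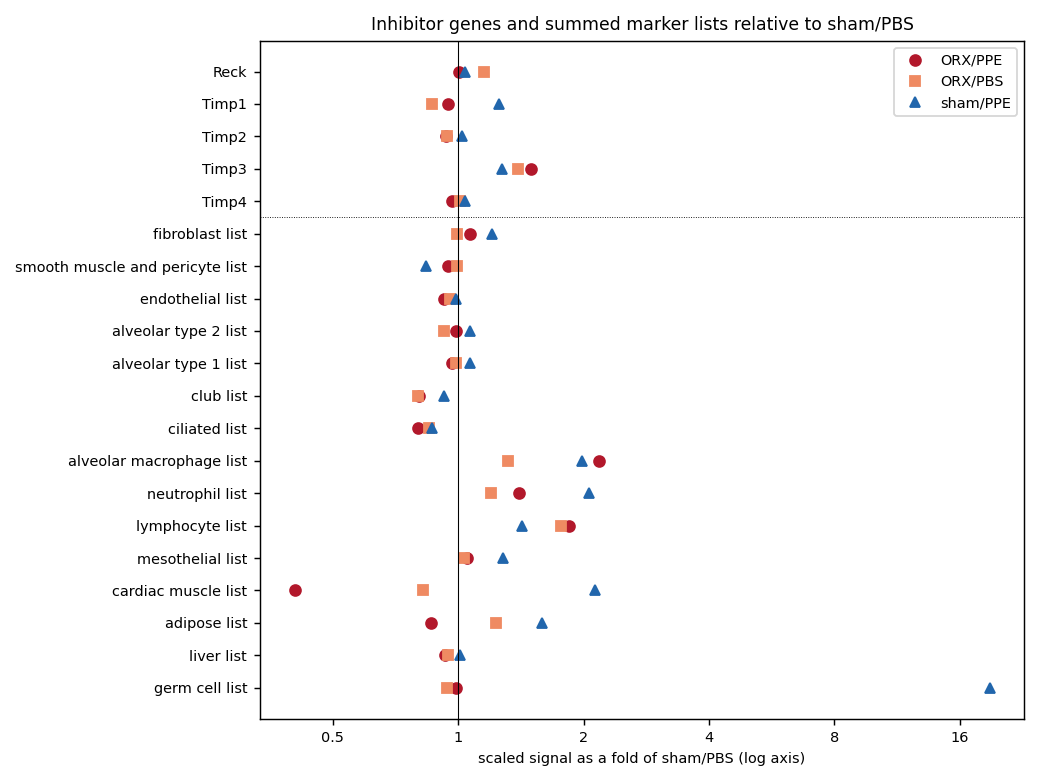
Scaled signal on ORX/PPE, ORX/PBS and sham/PPE as a fold of sham/PBS on a log axis, for the brightest probe of the 5 measured inhibitors (above the dotted line) and for the summed markers of 15 cell types or organs (below it). The inhibitors lie between 0.865-fold and 1.5-fold, while the cardiac muscle list runs from 0.405-fold on ORX/PPE to 2.13-fold on sham/PPE.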

How the data were processed

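Lung RNA pooled from 5 mice was labelled with Cy3 and hybridised to 1 array per group, per the labels' protocols. The processed signal, its error, the mean signal and the local background are linear intensity values deposited by the authors; the processed signal was background-subtracted and detrended, per the file headers, and not normalized between arrays. Feature Extraction 10.7.1.1 is named per the file headers and 9.5.1.1 per the submitters' processing notes. The deposited value table is linear intensity with a median of 71.5 on every array, and its method of scaling is not given in the sources used here. Its log2 values differed from those of quantile normalization by a median of 0.0036 on every array. The value table and quantile normalization are therefore not separate checks. Other columns are marks of 0 or 1, per the file headers.

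Outlier and control spots were left out, 0 spots were saturated, spots of a probe were averaged, and log2 of the signal was scaled to each array's 75th percentile over probes. Probes were named through the table of assembly GRCm38.p6 by accession (32994), symbol (10224) or synonym (520), 2574 kept the file's name and 10293 had none. A gene is its brightest probe. A gene above background on 1 array of a pair got a bound against the dim array's floor. Repeat spots of 300 probes varied within arrays by a median SD of 0.0320 to 0.0363. The fit used limma 3.58.1 (R 4.3.3), with p-values adjusted by Benjamini-Hochberg; it took genes above background on at least 2 arrays, and the script was tested on simulated data. Python 3.11.15 did the rest. Members, lists and tests were chosen with earlier results of these data known. Named were all 6 genes with every probe, their known targets and partners, and list members past 2-fold (up to 4 a direction) outside the marker lists. Markers past 2-fold were named only in part, so an unnamed marker may have passed it. No inhibitor spanned 2-fold at its brightest probe, so no gene of like pattern was named.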

Additional observations from a re-analysis of the deposited data

How the results depend on the processing

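The count of inhibitors past 2-fold was 0 in each of the 4 comparisons under normexp, quantile normalization, median centring, averaging all probes of a gene, the value table, a filter on all 4 arrays and a 1.5-fold threshold. It became 1 without a filter on dim probes, through A2m, for PPE in sham lungs, PPE in ORX lungs and ORX in PBS lungs, and 1 with the other Timp3 probe for ORX in PBS lungs. The difference of the PPE effects passed 2-fold for 1 gene, A2m, without that filter and for 0 otherwise. The limma count for the inhibitors was 0 under every alternative run, though with normexp 2 inhibitors had an unadjusted p under 0.05 for ORX. Over all genes limma called 5 for PPE and 6 for ORX with normexp, and 0 under the other alternatives. All 140 recomputed gene differences stayed within the scanner error of the reported value, but part of them could not move. Dropping the filter or filtering on all 4 arrays leaves the values as they are. Averaging probes cannot change Timp1 or Reck, which have a single probe each. Of 160 probe differences under other scalings 7 took the other sign, the largest of 0.21, at Timp2, Reck and Timp4 probes. Both numbers count quantile normalization and the value table apart, though their values are nearly the same. Over all genes the counts past 2-fold were 355 and 219 for PPE in sham and in ORX lungs and 378 and 362 for ORX in PBS and in PPE lungs. In that order normexp made them 76, 27, 90 and 95, no filter 2054, 1796, 1970 and 2059, and a 1.5-fold threshold 1921, 1237, 1977 and 1499. The filter on all 4 arrays made them 218, 120, 249 and 245. Normexp also moved the split of higher and lower calls, to 67 and 9 from 275 and 80 for PPE in sham lungs and to 4 and 91 from 61 and 301 for ORX in PPE lungs. No replicate could be left out, and no paired analysis was possible because each group was 1 array. Signal over background limits A2m and the dim Timp4 probe.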
